A study of Mus musculus with 45 samples.

Results

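The vacuolar proton pump and the acid-base genes of the kidney's intercalated cells were followed across translating ribosome affinity purification (TRAP) RNASeq libraries from 45 mice. The set held 32 genes, chosen by name, of 55401 genes in the count tables: 11 subunits of the pump's peripheral V1 sector, 8 of its membrane V0 sector, 2 accessory subunits, and 11 transporters, enzymes and factors of intercalated cells. All 32 were in the tables of both sexes and passed the low-count filter in both. The list was drawn up around the question of whether other subunits follow Atp6v0c, a V0 gene near Pkd1 that was already known to be lower in these mice with the floxed Pkd1 allele.

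Every mouse carried a single copy of R26Rpl10a, Pax8rtTA and TetOCre and received doxycycline from P28 to P42, and kidneys were taken at P49. Noncystic mice (Pkd1 fl/+, 8 males and 7 females) kept an intact Pkd1 allele, Pkd1KO mice (Pkd1 fl/fl, 7 males and 8 females) had both alleles floxed, and Pkd1KO+ciliaKO mice (Pkd1 fl/fl; Kif3a fl/fl, 9 males and 6 females) also lost Kif3a, a kinesin subunit needed to build cilia. Pax8rtTA switched on Cre along the kidney tubule, and Cre in turn inactivated the floxed alleles and switched on the EGFP-L10a ribosomal protein by which translating mRNA was pulled down. Ribosomes of all tubule segments were pulled down together, so fewer cells of a type and less RNA per cell cannot be told apart.

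The V-ATPase uses ATP hydrolysed in its V1 sector to turn a ring of V0 c subunits, coded by Atp6v0c, and so carries protons across membranes. Most subunits serve lysosomes and endosomes in every cell, while some have a partner isoform enriched in intercalated cells of the collecting duct, where the pump stands at the cell surface. Type A intercalated cells secrete acid and use the basolateral chloride-bicarbonate exchanger AE1 (Slc4a1), and type B cells secrete bicarbonate through pendrin (Slc26a4); both depend on the transcription factor Foxi1. Unlike principal cells, intercalated cells carry no primary cilium.

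Total gene counts ran from 80874556 to 132958186 per mouse. Proximal tubule markers summed to at least 4192 CPM (read counts scaled to library size with edgeR's TMM factors) in every mouse, and none of the intercalated cell markers was at 0 in any group. In 2 female libraries, Kif3a went against the label. The library labelled noncystic female 5 had 6.62 CPM of Kif3a against at least 22.97 CPM in the other noncystic females, and the library labelled Pkd1KO+ciliaKO female 6 had 20.48 CPM against at most 8.38 CPM in the rest of its group. Calls of members in females are given with and without both libraries. Among males, 4 libraries were treated as standing apart (noncystic 3, Pkd1KO 4, and Pkd1KO+ciliaKO 6 and 8), and calls that change without them are marked. No criterion for this choice is given here, and in the paper principal component analysis gave no sign of significant outliers. Levels below are scaled CPM, and changes are log2 fold changes with their standard error (SE) from edgeR's quasi-likelihood test. Each adjusted p is Benjamini-Hochberg adjusted over all protein-coding genes tested, and a gene was called at an adjusted p at or under 0.05. In each sex, the 3 pairwise comparisons share their mice, so a gene's values in them are not independent.

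Atp6v0c was lower in mice with 2 floxed Pkd1 alleles, with or without Kif3a. It was chosen because of this fall in these mice, so its p-values describe the fall and are not independent evidence of it. In males it ran from 69.9 to 110.4 CPM in noncystic mice, with a median of 102.2. It ran from 36.3 to 53.2 CPM (median 49.8) in Pkd1KO males, and from 33.4 to 55.4 CPM (median 51.3) in Pkd1KO+ciliaKO males. Every fl/fl male lay below every noncystic male, and the ranges of the fl/fl groups overlapped almost fully. Atp6v0c fell by 1.01 on the log2 scale (SE 0.10, adjusted p = 2.23e-05), or to 0.495 times the noncystic level, in Pkd1KO males. It fell by 1.00 (SE 0.10, adjusted p = 4.35e-06) in Pkd1KO+ciliaKO males. Between Pkd1KO and Pkd1KO+ciliaKO males the difference was -0.01, with a 95% interval from -0.21 to 0.20 (adjusted p = 0.978).

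In females Atp6v0c ran from 46.9 to 101.6 CPM (median 96.6) in noncystic mice, from 43.0 to 51.6 CPM (median 47.9) in Pkd1KO mice, and from 40.7 to 74.7 CPM (median 47.2) in Pkd1KO+ciliaKO mice. The lowest noncystic value and the highest Pkd1KO+ciliaKO value were those of the libraries whose Kif3a went against the label. Without both, the noncystic females were at 92.1 to 101.6 CPM and the Pkd1KO+ciliaKO females at 40.7 to 53.3 CPM, and the groups no longer overlapped. Atp6v0c fell by 0.90 (SE 0.12, adjusted p = 0.000364) in Pkd1KO females, and by 1.01 (adjusted p = 1.11e-08) without the 2 libraries. It fell by 0.81 (SE 0.17, adjusted p = 0.03) in Pkd1KO+ciliaKO females, and by 1.07 (adjusted p = 9.4e-06) without them. With both libraries kept, that last call was lost when any 1 of noncystic females 2, 3, 6 or 7 or of Pkd1KO+ciliaKO females 2, 3, 4 or 5 was left out, with an adjusted p of up to 0.0857. Pkd1KO and Pkd1KO+ciliaKO females differed by -0.09, with a 95% interval from -0.34 to 0.15 (adjusted p = 0.641). With the genotypes pooled by Pkd1 allele, Atp6v0c fell by 1.00 (adjusted p = 1.88e-08) in fl/fl males and by 0.86 (adjusted p = 0.000802) in fl/fl females, or by 1.04 (adjusted p = 4.86e-10) in females without the 2 libraries.

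A processed pseudogene on another chromosome carries nearly the whole Atp6v0c reading frame, and its counts moved the other way. Atp6v0c lies on chromosome 17 (chr17:24163866-24169702, minus strand, GRCm38) and Atp6v0c-ps2 on chromosome 6 (chr6:37806086-37806550). Over the pseudogene's 465 bases the sequences differ at 1 base, T111C, counted from the first base of the Atp6v0c start codon. That base is the third position of codon 37, in exon 2 of 3, and reads within these bases that do not cover it match both genes alike. The stretches of 121 bases around it were taken from the annotated GRCm38 transcripts, which are spliced for Atp6v0c, in the sense of the gene. They are shown because within the reading frame this base alone separates the copies, and it is in capitals.
Atp6v0c: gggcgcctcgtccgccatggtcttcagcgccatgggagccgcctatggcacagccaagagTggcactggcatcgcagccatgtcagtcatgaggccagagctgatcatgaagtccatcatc
Atp6v0c-ps2: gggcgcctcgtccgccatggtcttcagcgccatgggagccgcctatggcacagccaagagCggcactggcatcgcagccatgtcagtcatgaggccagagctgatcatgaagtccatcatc

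In males Atp6v0c-ps2 ran from 15.5 to 27.5 CPM (median 25.01) in noncystic mice, from 36.8 to 56.4 CPM (median 47.1) in Pkd1KO mice and from 32.6 to 56.7 CPM (median 49.9) in Pkd1KO+ciliaKO mice. No fl/fl male overlapped with a noncystic male. The pseudogene rose by 0.98 (SE 0.11, adjusted p = 0.000122) in Pkd1KO males and by 0.99 (adjusted p = 4.06e-05) in Pkd1KO+ciliaKO males. In females it ran from 20.9 to 43.0 CPM (median 23.1) in noncystic mice, from 41.4 to 52.9 CPM (median 48.4) in Pkd1KO mice and from 25.4 to 51.9 CPM (median 42.4) in Pkd1KO+ciliaKO mice. The noncystic maximum and the Pkd1KO+ciliaKO minimum were again the libraries labelled noncystic female 5 and Pkd1KO+ciliaKO female 6. It rose by 0.89 (adjusted p = 0.000614) in Pkd1KO females and by 0.70 (adjusted p = 0.0485) in Pkd1KO+ciliaKO females, or by 1.06 and 0.98 without the 2 libraries.

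The pseudogene held 18.1 to 21.2% of the pair's counts in noncystic males, 47.8 to 52.1% in Pkd1KO males and 47.8 to 50.8% in Pkd1KO+ciliaKO males. In females without the library labelled noncystic female 5 (47.8%) and that labelled Pkd1KO+ciliaKO female 6 (25.4%), the shares lay on the same sides. When the counts of both copies were summed, the change was smaller. The sum fell by 0.35 (adjusted p = 0.041) in Pkd1KO males and by 0.26 (adjusted p = 0.0321) in Pkd1KO females, or by 0.31 (adjusted p = 0.00218) in females without the 2 libraries. In Pkd1KO+ciliaKO mice it was at -0.34 (adjusted p = 0.0522) in males and -0.31 (adjusted p = 0.0652) in females, neither of them called. Without the 4 males the sum fell by 0.31 (adjusted p = 0.00193) in Pkd1KO+ciliaKO males, and without the 2 females by 0.38 (adjusted p = 0.0142) in Pkd1KO+ciliaKO females. This sum was chosen after the pseudogene's counts were seen. How much of the change in Atp6v0c is a loss of its transcript and how much a shift of reads between the copies was not tested, and how the authors' counting treated reads that match both genes is not given in the sources used here.

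**Figure D1:**
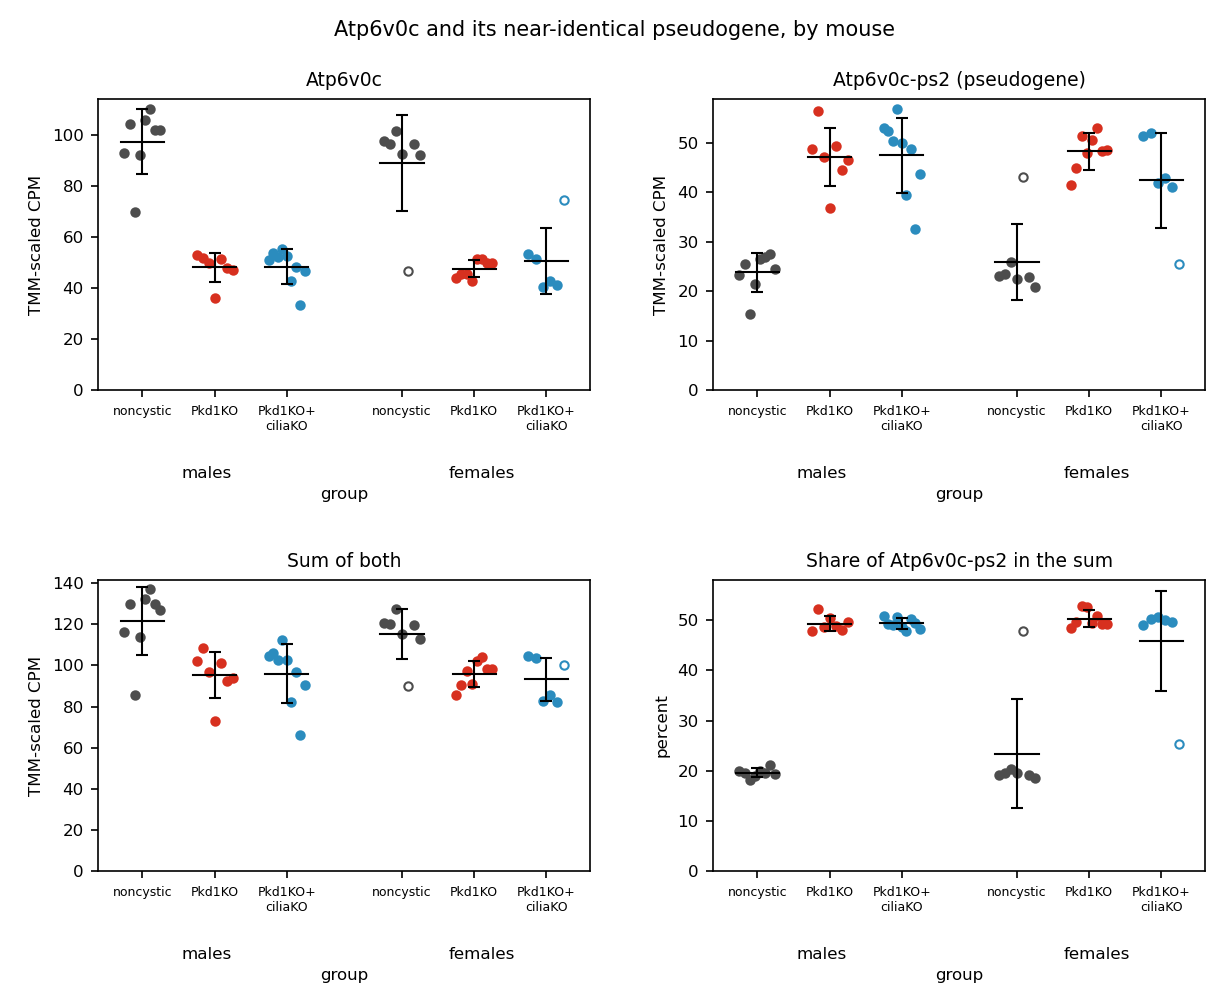
Atp6v0c, its pseudogene Atp6v0c-ps2 and their sum in scaled CPM, and the pseudogene's share of the sum in percent, by group, with 1 point per mouse and lines for the mean and SD. Noncystic males sit at 69.9 to 110.4 CPM of Atp6v0c and fl/fl males at or below 55.4 CPM. The share rises from about 20% to about 50%. Open rings are the libraries labelled noncystic female 5 and Pkd1KO+ciliaKO female 6. The first sits with the fl/fl females. The second, at 74.7 CPM of Atp6v0c and a share of 25.4%, lies in these values between the other noncystic and the other Pkd1KO+ciliaKO females. Its sum, 100.1 CPM, lies within its own group.

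The interval between Atp6v0c and Pkd1 spans 380 kb and held 15 tested genes. At most 3 of them were called in any comparison with noncystic mice, those with pooled genotypes included, and their median change ranged from -0.04 to 0.11 over those comparisons. Of the neighbours named beforehand, Amdhd2 fell by 0.54 (adjusted p = 0.0454) in Pkd1KO+ciliaKO against noncystic males and was at -0.40 (adjusted p = 0.0561) in the same comparison of females. Tbc1d24 fell by 0.35 (adjusted p = 0.00911) in Pkd1KO against Pkd1KO+ciliaKO females and was at -0.34 (adjusted p = 0.172) in those males. Rnps1, an RNA-binding protein of the exon junction complex, named here after its values were seen, fell in all 4 comparisons with noncystic mice, by 0.67, 0.79, 0.62 and 0.59. Ccnf, also named afterwards, rose in Pkd1KO and Pkd1KO+ciliaKO males, by 1.58 and 0.84 from about 1.02 CPM, and Abca17, near 0.1 CPM, fell by 1.38 in fl/fl males. Pkd1 itself was not called in any comparison, with changes from -0.45 to 0.08. In the paper Cre deletes only some of the exons of Pkd1, so counts over the whole gene do not measure its inactivation. Atp6v0e, the member that also lies on chromosome 17, 2.07 Mb from Pkd1, was not called in any, with changes from -0.10 to 0.13.

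In edgeR's calls and in the size of their changes, the other subunits did not follow Atp6v0c as a group. Of the 20 subunits other than Atp6v0c, 3 fell and none rose in Pkd1KO against noncystic males, where 6.30% of the 15991 genes tested were called, and their median change was -0.15 against -0.01 over all genes. In Pkd1KO against noncystic females (background 3.34%) 1 rose and none fell, with a median of -0.10. None was called in Pkd1KO+ciliaKO against noncystic mice of either sex by edgeR (background 8.89% in males and 2.54% in females). At an unadjusted p under 0.05 there were 1 in males and 3 in females, and DESeq2 called Atp6v1f in females and limma Atp6v1c1 in males. In Pkd1KO against Pkd1KO+ciliaKO mice 1 fell in males (background 3.77%), and 1 rose and 1 fell in females (background 11.7%). With the genotypes pooled by Pkd1 allele, none of the 20 was called in males (background 8.66%) or in females (background 1.06%), with 7 and 4 at an unadjusted p under 0.05. Without the 4 males, Atp6v1b1 (-0.28, adjusted p = 0.0479) and Atp6v1b2 (-0.13, adjusted p = 0.0486) were called lower in fl/fl males, and without the 2 females Atp6v1f (-0.21, adjusted p = 0.0478) in fl/fl females. The largest change among the 20 in any of these comparisons was that of Atp6v0d2 at -0.44. It came from Pkd1KO against Pkd1KO+ciliaKO males, where Atp6v0c was at -0.01. In the comparisons with noncystic mice Atp6v0c was at -1.01 to -0.81. The number of calls in Pkd1KO against noncystic males depended on the method. Of all members, subunits or not, edgeR called 4 there and DESeq2, the package used in the paper, called 10. Without the 4 males edgeR called 1. Limma and the fit of all genotypes together also called more than edgeR. The DESeq2 calls included Atp6v1b1, Atp6v1d and Atp6v1e1, and how many of the others were subunits is not given here.

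**Figure D2:**
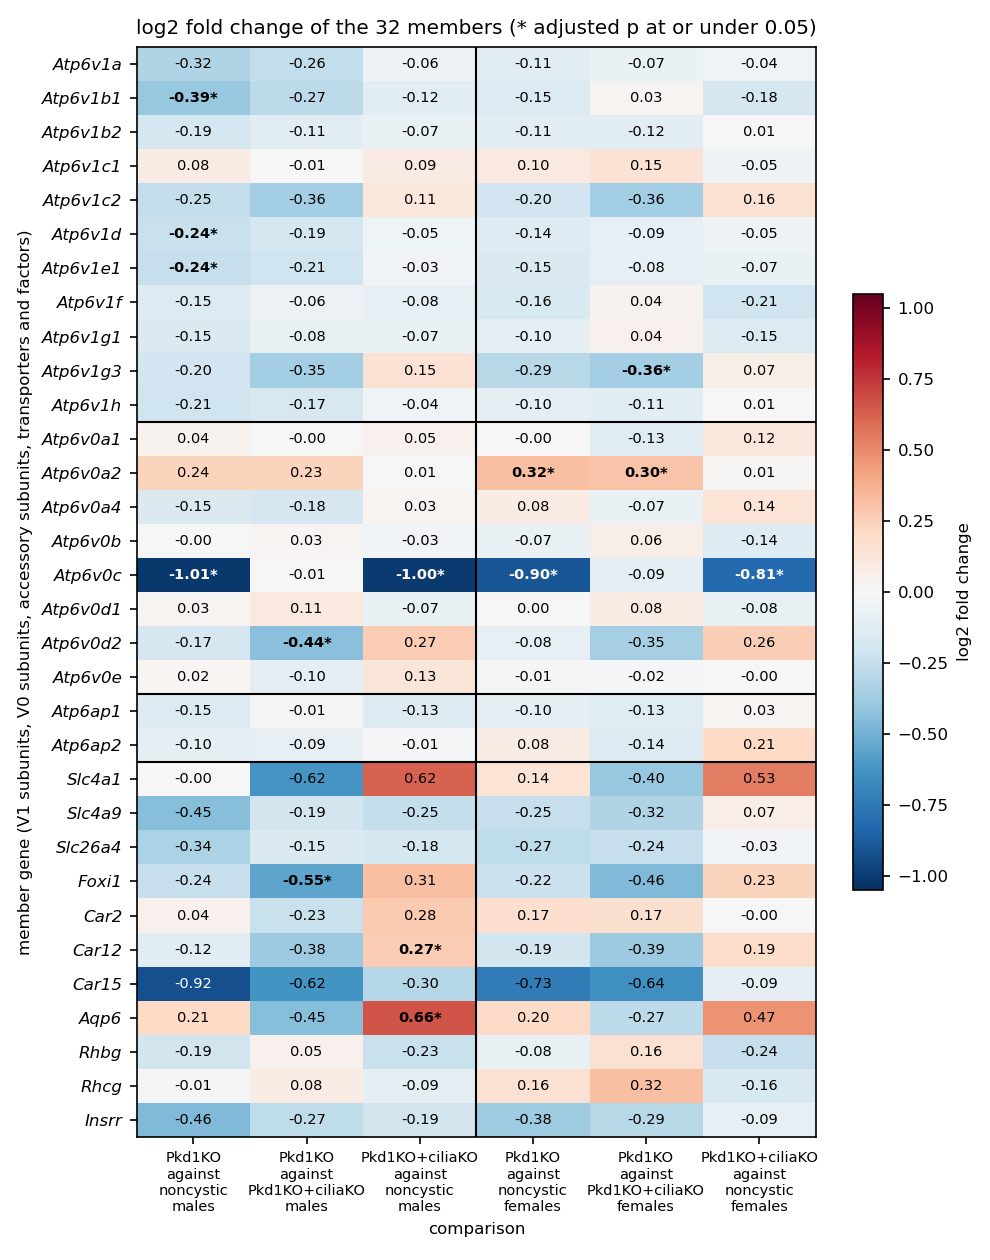
Log2 fold change of each of the 32 genes (rows) in the 6 pairwise comparisons (columns), coloured from blue for lower to red for higher, with an asterisk at an adjusted p at or under 0.05. The Atp6v0c row stands out, from -1.01 in Pkd1KO males to -0.81 in Pkd1KO+ciliaKO females against noncystic mice, and is near 0 between the fl/fl genotypes, while the other 20 subunits stay between -0.44 and 0.32.

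The V1 genes, which code the catalytic head and its stalks, were mostly lower in Pkd1KO males by small amounts. Of the 11, 10 had a negative change against noncystic males (median -0.21), and 3 were called. Atp6v1b1, the intercalated cell isoform of the B subunit, ran from 147.1 to 206.3 CPM (median 180.2) in noncystic males, from 113.6 to 175.0 CPM (median 132.3) in Pkd1KO males and from 120.0 to 220.4 CPM (median 164.6) in Pkd1KO+ciliaKO males. The Pkd1KO males were the lowest group, with overlap on both sides. Atp6v1b1 fell by 0.39 (SE 0.11, adjusted p = 0.035) in Pkd1KO against noncystic males. Atp6v1d, a subunit of the central rotor, ran from 169.0 to 198.7 CPM (median 178.3) in noncystic and from 132.0 to 171.0 CPM (median 153.7) in Pkd1KO males, and fell by 0.24 (SE 0.07, adjusted p = 0.0406). Atp6v1e1, of the peripheral stalks, ran from 277.7 to 327.9 CPM (median 287.3) in noncystic and from 206.8 to 277.0 CPM (median 260.8) in Pkd1KO males, and fell by 0.24 (SE 0.07, adjusted p = 0.0407). The ranges of Atp6v1e1 did not overlap, while those of Atp6v1d met at their ends.

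These 3 calls sat close to the threshold. Without the 4 males that stood apart, Atp6v0c alone of the 32 members was called, and the changes were -0.33 (adjusted p = 0.101) for Atp6v1b1, -0.21 (adjusted p = 0.0833) for Atp6v1d and -0.21 (adjusted p = 0.0673) for Atp6v1e1. Leaving out 1 male at a time ended the call of Atp6v1b1 in 8 of 15 fits (noncystic 1, 2, 3 or 6, or Pkd1KO 1, 3, 4 or 5), of Atp6v1d in 10 (noncystic 1, 2, 5, 6, 7 or 8, or Pkd1KO 3, 4, 5 or 6) and of Atp6v1e1 in 11 (the same mice or noncystic 4), with an adjusted p of up to 0.111. In females the same 3 genes were at -0.15, -0.14 and -0.15 against noncystic mice, with adjusted p of 0.693, 0.348 and 0.338. Atp6v1a, the catalytic A subunit, was at -0.32 (adjusted p = 0.0755) in Pkd1KO males and -0.11 (adjusted p = 0.629) in Pkd1KO females.

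The same Pkd1KO males differed from noncystic males in other tubule and immune markers, beside a background of 6.30% of genes called. All 8 macrophage markers had a positive change against noncystic males (median 1.77, 2 called), with a summed level of 99.3 to 427.8 CPM against 73.0 to 104.6 CPM. The highest sum was that of Pkd1KO male 4 alone, and the other Pkd1KO males reached at most 138.1 CPM. The group medians of the sum were closer, at 116.9 CPM against 91.5 CPM. All 5 thick ascending limb markers had a negative change (median -0.53, 2 called), and their sum ran from 2105 to 3773 CPM against 2953 to 5776 CPM. All 6 proximal tubule markers had a negative change as well (median -0.35, 1 called), and 2 of 5 podocyte markers rose. None of 5 endothelial, 6 fibroblast, 4 distal convoluted tubule, 4 osteoclast-like or 8 erythroid genes tested was called by edgeR in this comparison, with 1 distal convoluted tubule gene and 1 erythroid gene at an unadjusted p under 0.05. The part of these other cells in the lower V1 levels was not tested.

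Among V0 genes other than Atp6v0c, Atp6v0a2 rose in Pkd1KO females. It codes the a2 isoform of the subunit that holds the proton half-channels, an isoform known from the Golgi and endosomes. It ran from 67.9 to 95.7 CPM (median 80.4) in noncystic, from 90.1 to 111.1 CPM (median 98.1) in Pkd1KO and from 67.4 to 89.7 CPM (median 80.04) in Pkd1KO+ciliaKO females. All Pkd1KO females lay above all Pkd1KO+ciliaKO females, by a small margin (90.1 against 89.7 CPM at the nearest). Of the noncystic females, only female 3 at 95.7 CPM overlapped with them. Atp6v0a2 rose by 0.32 (SE 0.07, adjusted p = 0.0171) against noncystic and by 0.30 (SE 0.07, adjusted p = 0.00966) against Pkd1KO+ciliaKO females. In males it was at 0.24 (adjusted p = 0.0557) and 0.23 (adjusted p = 0.17) in the same comparisons. No single mouse ended either female call, and without the 2 libraries the changes were 0.33 (adjusted p = 0.0173) and 0.29 (adjusted p = 0.0192).

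Atp6v0d2, the intercalated cell isoform of the d subunit at the base of the rotor, was lower in Pkd1KO than in Pkd1KO+ciliaKO males. It ran from 35.4 to 50.1 CPM (median 40.8) in Pkd1KO and from 43.7 to 73.0 CPM (median 58.7) in Pkd1KO+ciliaKO males, with noncystic males between them at 39.4 to 53.5 CPM (median 47.9). The difference was -0.44 (SE 0.12, adjusted p = 0.0403), and -0.29 (adjusted p = 0.12) without the 4 males that stood apart. Leaving out 1 male at a time ended the call in 10 of 16 fits (any of Pkd1KO 1 to 5, or Pkd1KO+ciliaKO 1, 3, 6, 8 or 9). In females it was at -0.35 (adjusted p = 0.0521). The changes of Atp6v0a1, Atp6v0a4, Atp6v0b, Atp6v0d1 and Atp6v0e, and of the accessory subunits Atp6ap1 and Atp6ap2, which help the pump assemble and be sorted, stayed between -0.18 and 0.21 in the 6 comparisons, with none called.

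Per length, in TPM (counts scaled to transcript length and library size, as deposited for each sex separately), the subunits of the pump differed widely. In noncystic males the highest were Atp6v1a at 548 ± 96.4 TPM (SD, n = 8), Atp6v1f at 544.2 ± 33.1 and Atp6v1g1 at 489 ± 30.6. The lowest were Atp6v0a1 at 28.1 ± 3.65, Atp6v0a2 at 41.1 ± 2.704 and Atp6v1h at 44.8 ± 3.87. Atp6v1a and Atp6v1f could not be separated within their SD, and Atp6v1a and Atp6v1g1 overlapped within theirs. Among the transporters and enzymes, carbonic anhydrase II (Car2) was at 443 ± 76.1 TPM, the ammonia channel gene Rhcg at 103.7 ± 21.7, and Slc4a9 and Rhbg at 17.01 ± 2.52 and 13.0 ± 3.18. Car15, a membrane-bound carbonic anhydrase, was at 0.589 ± 0.361 TPM. Car15 and Rhbg share 1253 and 1190 exonic bases with another gene on the same strand, so their values, here and in the comparisons, are uncertain.

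**Figure D3:**
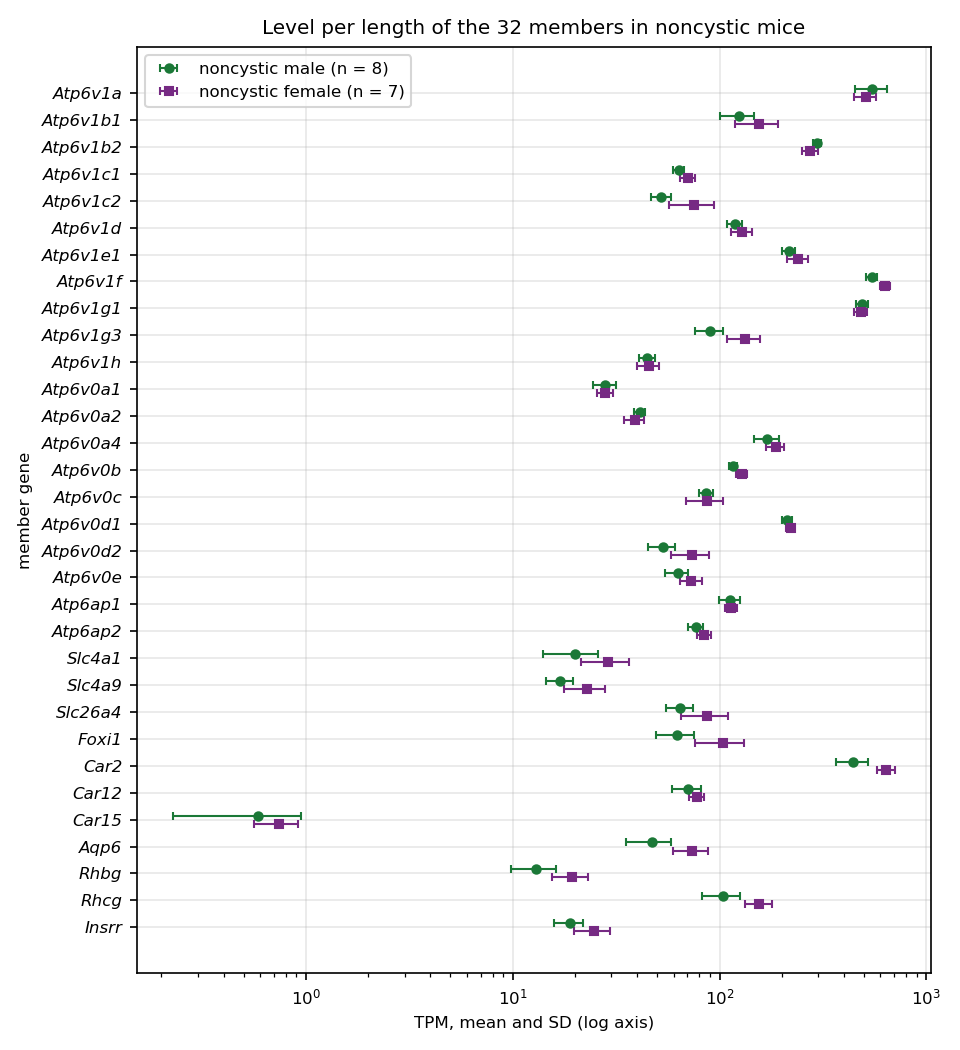
Level per length of the 32 genes in noncystic mice, as mean and SD of TPM on a log axis, for 8 males (circles) and 7 females (squares). Most subunits lie between about 28 and 550 TPM in males, and Car15 lies below 1.

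The 5 subunit isoforms enriched in intercalated cells were set beside their widely expressed counterparts as a ratio of TPM within each mouse. For the B subunit, Atp6v1b1 was 0.415 ± 0.064 (SD, n = 8) of Atp6v1b2 in noncystic males and 0.561 ± 0.093 (n = 7) in noncystic females. For the a subunit, Atp6v0a4 exceeded Atp6v0a1 by 6.09 ± 0.63 times in noncystic males, a value to be read with care since Atp6v0a4 shares 259 exonic bases on the same strand with another gene. For the C, G and d subunits the ratios in noncystic males were 0.824 ± 0.109 (Atp6v1c2 to Atp6v1c1), 0.184 ± 0.033 (Atp6v1g3 to Atp6v1g1) and 0.250 ± 0.038 (Atp6v0d2 to Atp6v0d1).

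In Pkd1KO and Pkd1KO+ciliaKO mice the ratio for the B subunit was 0.360 ± 0.056 and 0.401 ± 0.082 in males, and 0.552 ± 0.081 and 0.499 ± 0.083 in females. For the C subunit it was 0.658 ± 0.205 and 0.837 ± 0.170 in males, and 0.873 ± 0.229 and 1.24 ± 0.21 in females, against 1.07 ± 0.24 in noncystic females. For the a subunit it was 5.48 ± 1.26 and 6.13 ± 1.58 in males, and 7.08 ± 1.01 and 6.76 ± 0.89 in females, against 6.71 ± 1.14 in noncystic females. The ranges over mice of these 3 ratios overlapped between the genotypes of each sex.

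The ratio of Atp6v0d2 to Atp6v0d1 was 0.215 ± 0.027 in Pkd1KO males and 0.321 ± 0.090 in Pkd1KO+ciliaKO males, and 0.313 ± 0.065 and 0.421 ± 0.039 in the females of these groups, with 0.334 ± 0.073 in noncystic females. The ratio of Atp6v1g3 to Atp6v1g1 was 0.175 ± 0.021 against 0.213 ± 0.033 in the males, and 0.242 ± 0.026 against 0.323 ± 0.044 in the females, with 0.275 ± 0.044 in noncystic females. Without the library labelled Pkd1KO+ciliaKO female 6, the Pkd1KO+ciliaKO females were at 0.427 ± 0.041 and 0.326 ± 0.048 (n = 5) for the d and G subunits. Both mean ratios were lower in Pkd1KO than in Pkd1KO+ciliaKO mice in each sex, and the ranges over mice overlapped. Atp6v1g3, the intercalated cell isoform of the G subunit of the stalks, ran from 49.9 to 77.2 CPM (median 60.7) in Pkd1KO and from 64.6 to 89.6 CPM (median 81.1) in Pkd1KO+ciliaKO females. It fell by 0.36 (SE 0.10, adjusted p = 0.0251) in Pkd1KO against Pkd1KO+ciliaKO females, a call lost without Pkd1KO+ciliaKO female 2 (adjusted p = 0.0563). Without the 2 libraries it fell by 0.37 (adjusted p = 0.0359). In males it was at -0.35 (adjusted p = 0.0889).

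All 5 of these isoforms had a negative change in Pkd1KO against Pkd1KO+ciliaKO males (median -0.35), and 4 of 5 in females (median -0.35). In each sex 1 was called, beside a background of 3.77% in males and 11.7% in females. The median over all genes was 0.01 in males and -0.01 in females. With all libraries kept, the coefficient of variation within groups had a median of 15.6% for the 5 isoforms. This was above the 9.27% of the 16 widely expressed subunits and below the 20.6% of the transporters and factors.

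Of the 11 transporters, enzymes and factors, Foxi1 alone was called in Pkd1KO against Pkd1KO+ciliaKO males (background 3.77%). None was called in females with all libraries kept (background 11.7%). Foxi1 ran from 28.9 to 54.1 CPM (median 38.9) in Pkd1KO males and from 37.4 to 72.6 CPM (median 64.6) in Pkd1KO+ciliaKO males, with noncystic males at 37.6 to 66.4 CPM (median 47.4). The fl/fl groups overlapped, and the Pkd1KO+ciliaKO median lay above every Pkd1KO value. Foxi1 fell by 0.55 (SE 0.14, adjusted p = 0.041) in Pkd1KO against Pkd1KO+ciliaKO males. The change was -0.46 (adjusted p = 0.129) without the 4 males that stood apart, and leaving out 1 male ended the call in 11 of 16 fits (any of Pkd1KO 1 to 5, or of Pkd1KO+ciliaKO 3 to 8). In females it was -0.46 (adjusted p = 0.0745), and without the 2 libraries Foxi1 fell by 0.54 (adjusted p = 0.0469). Pkd1KO+ciliaKO female 1 was at 151.1 CPM of Foxi1, against at most 81.6 CPM in the rest of its group. The Pkd1KO females ran from 55.5 to 85.7 CPM. Whether the call without the 2 libraries rests on this mouse was not tested. The promoter table held 21 of the 32 members, and the forkhead motif TGTTTAC, searched on both strands in the 250 bases before each gene's start, was found in 1 of them, Atp6v1b1, and in 3.54% of 27025 promoters. It is shown, in capitals, because Atp6v1b1 is a known target of Foxi1 (RefSeq, GRCm38.p6, chr6:83742767-83743016, plus strand), with the motif's first base 98 bases before the start.
Atp6v1b1 promoter: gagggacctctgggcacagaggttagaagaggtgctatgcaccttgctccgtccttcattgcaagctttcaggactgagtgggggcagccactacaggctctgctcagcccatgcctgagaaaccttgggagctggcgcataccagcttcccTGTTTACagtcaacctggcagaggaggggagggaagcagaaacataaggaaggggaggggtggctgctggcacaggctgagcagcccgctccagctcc

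The E-box CACGTG, the motif of the lysosomal regulator Tfeb and of other factors, was found in 3 of the 21 promoters (Aqp6, Atp6v0b and Atp6v1a) and in 6.86% of all. These are matches of letters in a short window and no more.

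Of the type A genes, Aqp6 was higher in Pkd1KO+ciliaKO than in noncystic males. Aqp6, an anion-conducting aquaporin of acid-secreting cells, ran from 29.3 to 47.7 CPM (median 36.4) in noncystic, from 32.9 to 52.6 CPM (median 42.5) in Pkd1KO and from 40.4 to 76.4 CPM (median 61.6) in Pkd1KO+ciliaKO males. Of the 9 Pkd1KO+ciliaKO males, 6 lay above all noncystic males. Aqp6 rose by 0.66 (SE 0.13, adjusted p = 0.00406) in Pkd1KO+ciliaKO against noncystic males, or to 1.58 times, and no single mouse ended the call. In females it ran from 38.7 to 67.6 CPM (median 53.9) in noncystic and from 52.5 to 94.7 CPM (median 74.1) in Pkd1KO+ciliaKO mice. The female change was 0.47 (adjusted p = 0.0767), and without the 2 libraries Aqp6 rose by 0.56 (adjusted p = 0.0348). In all fl/fl males together it rose by 0.44 (adjusted p = 0.0155).

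Slc4a1 was at 0.62 (SE 0.19, adjusted p = 0.0514) in Pkd1KO+ciliaKO against noncystic males and at 0.53 (SE 0.18, adjusted p = 0.105) in females, called in neither, with the female change at 0.57 (adjusted p = 0.0753) without the 2 libraries. It ran from 26.2 to 73.8 CPM (median 50.9) in Pkd1KO+ciliaKO and from 22.5 to 43.0 CPM (median 29.2) in noncystic males, with Pkd1KO males at 20.2 to 47.1 CPM (median 30.97). In females it ran from 42.6 to 77.2 CPM (median 68.5) in Pkd1KO+ciliaKO, from 27.5 to 58.9 CPM (median 43.2) in noncystic and from 28.6 to 74.6 CPM (median 40.9) in Pkd1KO mice. AE1 is also the band 3 protein of red cells, and the 3 highest Pkd1KO+ciliaKO males (62.3, 65.7 and 73.8 CPM in mice 6, 8 and 9) were those with the highest sums of 10 erythroid genes, 17.7, 30.9 and 16.6 CPM against at most 6.44 CPM in the rest of the group. Pkd1KO male 1, with an erythroid sum of 19.2 CPM, had 21.96 CPM of Slc4a1. The group medians of the sum were 6.33 CPM in Pkd1KO+ciliaKO and 6.78 CPM in noncystic males. The 2 erythroid genes with the smallest p went opposite ways in that comparison. Epb42 rose by 1.53 (adjusted p = 0.00179) and Klf1 was at -0.49 (adjusted p = 0.0824). In females the erythroid sums overlapped between the groups, at 3.08 to 13.8 CPM against 4.21 to 15.5 CPM. The part of red cell RNA in the Slc4a1 level was not tested. With the type A genes Kit and Dmrt2 added, all 4 had a positive change in Pkd1KO+ciliaKO against noncystic mice of each sex, with a median of 0.52 in males and 0.44 in females. By edgeR, Aqp6 was called in males (background 8.89%). None was called in females (background 2.54%), where all 4 were at an unadjusted p under 0.05. In those females DESeq2 called Slc4a1 and Aqp6, and limma called Aqp6.

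Type B genes leaned lower in Pkd1KO mice, without a call. Slc26a4 ran from 39.8 to 72.2 CPM (median 54.3) in Pkd1KO and from 56.0 to 84.3 CPM (median 64.6) in noncystic males, a change of -0.34 (SE 0.13, adjusted p = 0.127). The groups overlapped, and the lowest mice were Pkd1KO males 3 and 4, at 41.03 and 39.8 CPM. Slc4a9, the anion exchanger AE4, ran from 18.1 to 39.5 CPM (median 27.1) in Pkd1KO and from 31.9 to 48.4 CPM (median 34.6) in noncystic males, a change of -0.45 (adjusted p = 0.0748). Insrr, an alkali-sensing receptor, ran from 18.6 to 41.8 CPM (median 25.9) against 27.6 to 45.3 CPM (median 34.1), a change of -0.46 (adjusted p = 0.0834). Pkd1KO+ciliaKO males overlapped with both groups for all 3 genes, with medians of 57.6 CPM for Slc26a4, 31.03 for Slc4a9 and 32.4 for Insrr. In noncystic, Pkd1KO and Pkd1KO+ciliaKO females the medians were 76.3, 65.7 and 84.1 CPM for Slc26a4, 41.6, 33.96 and 46.3 CPM for Slc4a9, and 43.8, 28.98 and 39.9 CPM for Insrr. The lowest noncystic female of each of the 3 genes was the library labelled noncystic female 5, and without the 2 libraries the changes in Pkd1KO against noncystic females were -0.35, -0.31 and -0.44, none of them called. With Oxgr1, all 4 had a negative change in Pkd1KO against noncystic mice of each sex (median -0.39 in males and -0.26 in females). edgeR called none, with all 4 at an unadjusted p under 0.05 in males and 1 in females. In males DESeq2 called Slc4a9 and Insrr, and limma called these and Slc26a4.

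**Figure D4:**
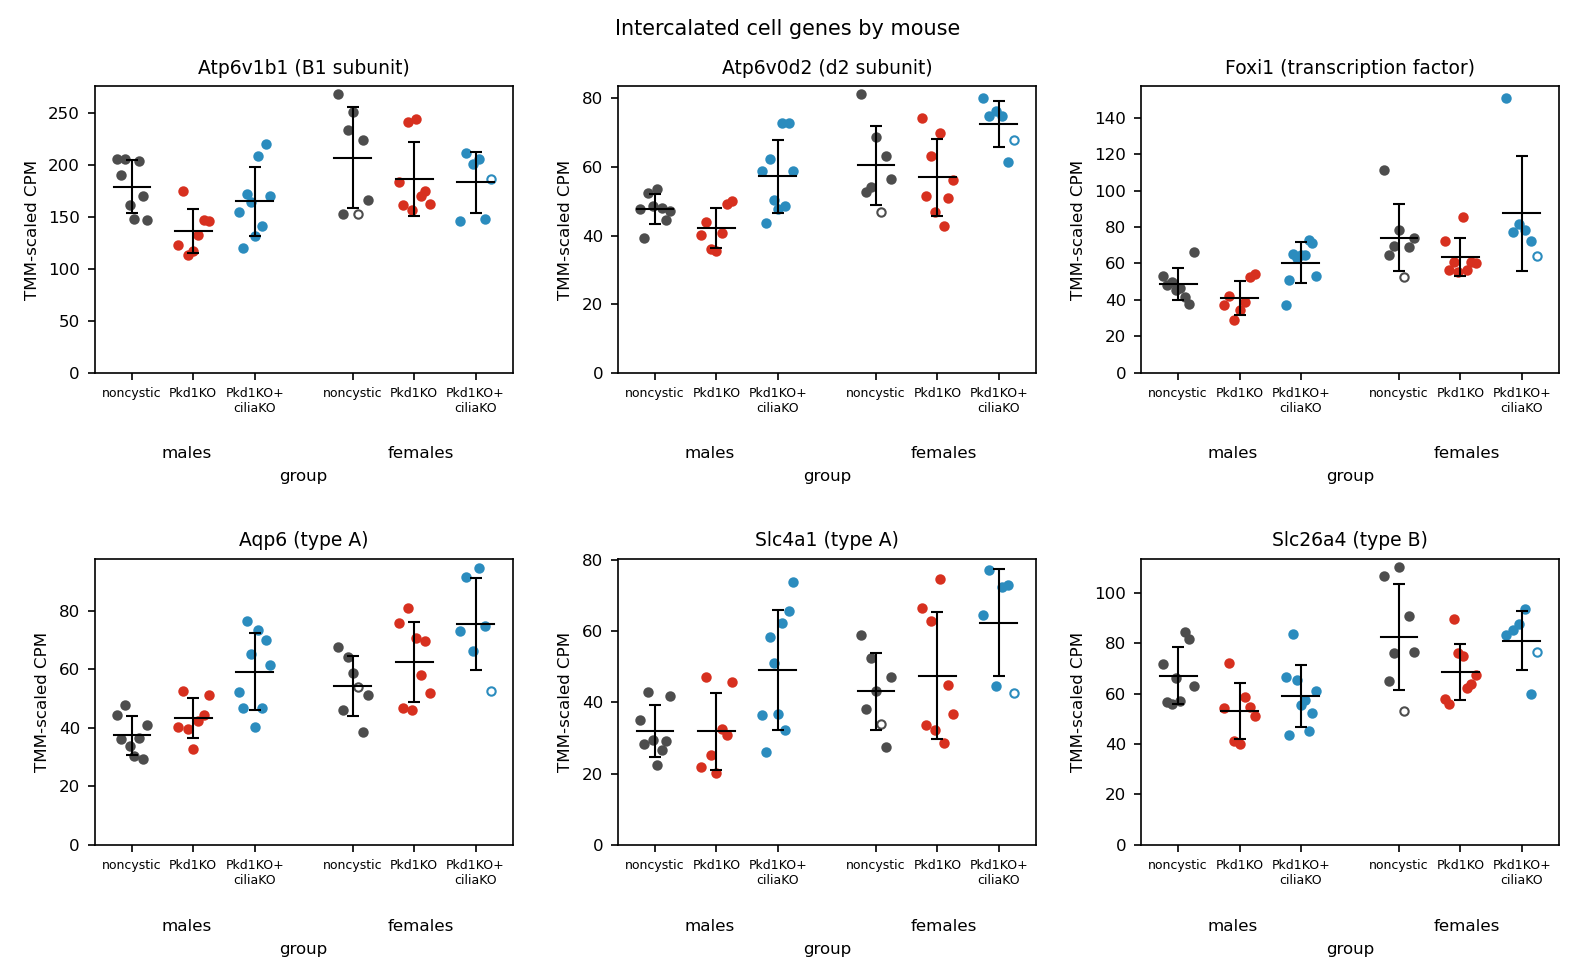
Scaled CPM of 6 intercalated cell genes by group, with 1 point per mouse, lines for the mean and SD, and open rings for the libraries labelled noncystic female 5 and Pkd1KO+ciliaKO female 6. Aqp6 reaches 76.4 CPM in Pkd1KO+ciliaKO males against at most 47.7 CPM in noncystic males, and Slc26a4 overlaps among all groups.

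Of the remaining acid-base genes, Car12, a carbonic anhydrase of the cell surface, rose by 0.27 (SE 0.07, adjusted p = 0.0217) in Pkd1KO+ciliaKO against noncystic males. It ran from 182.3 to 233.8 CPM (median 209.8) against 148.1 to 193.5 CPM (median 184.7), and the call was lost without noncystic male 2 or 5 (adjusted p of up to 0.0634), and with the 3 genotypes in 1 fit (adjusted p = 0.0767). Car12 was also at -0.38 (adjusted p = 0.0502) and -0.39 (adjusted p = 0.0514) in Pkd1KO against Pkd1KO+ciliaKO males and females. Car2, the cytosolic enzyme that supplies protons and bicarbonate, was not called in the pairwise comparisons, with changes from -0.23 to 0.28, and neither were the ammonia transporters Rhbg and Rhcg, with changes from -0.24 to 0.32. Car15 was at -0.92 (adjusted p = 0.0742) and -0.73 (adjusted p = 0.0812) in Pkd1KO males and females, from levels below 1 CPM.

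Over the 6 pairwise comparisons, 10 of the 32 members made 14 calls of 192 tests, where 6.09% of tests over all genes were called. Of these calls, 4 were those of Atp6v0c, which was chosen for its fall. In Pkd1KO against noncystic males (background 6.30%) the other lists of the pathway gave 1 higher and 1 lower of 15 other V-ATPase genes tested (assembly factors, regulators and minor isoforms), 0 of 18 lysosome genes by edgeR (3 at an unadjusted p under 0.05), 2 lower of 14 other intercalated genes and 2 lower of 10 proximal acid-base genes. Among other V-ATPase genes the smallest p were those of Oxr1, a binding partner of the V1 sector, which rose by 0.26 (adjusted p = 0.00382) in Pkd1KO against noncystic females, and Atp6v0e2, a minor V0 isoform, which rose by 0.52 (adjusted p = 0.00483) in Pkd1KO against Pkd1KO+ciliaKO females. Hepacam2, an intercalated cell gene, fell by 0.37 (adjusted p = 0.0406) in Pkd1KO against noncystic males, and Slc26a7, a chloride-bicarbonate exchanger of type A cells, rose by 0.75 (adjusted p = 0.00137) in Pkd1KO+ciliaKO against noncystic males. All 14 other intercalated genes had a negative change in Pkd1KO against Pkd1KO+ciliaKO males (median -0.26), and 13 of 14 in females (median -0.20), though edgeR called none of them in either sex, with 6 and 5 at an unadjusted p under 0.05. Among the proximal acid-base genes Slc38a3, a glutamine transporter, fell by 1.18 (adjusted p = 0.000506) in Pkd1KO against Pkd1KO+ciliaKO males. Among principal cell genes 3 of 9 rose and none fell in Pkd1KO+ciliaKO against noncystic males (background 8.89%). Their summed level was 372.4 to 940.6 CPM against 431.1 to 709.0 CPM. Whether principal cell RNA has a part in the type A levels was not tested.

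Between the sexes, 8 of the 32 members were lower and 2 higher in noncystic males than in noncystic females, where 12.2% of the 15828 genes tested were called lower and 15.3% higher. The 10 calls in all stand beside a background of 27.5%. The 8 lower members were 5 of the 11 transporters, enzymes and factors and 3 of the 5 intercalated isoforms. Foxi1 was at -0.59 (SE 0.14, adjusted p = 0.00332), with 37.6 to 66.4 CPM (median 47.4) in males and 52.3 to 111.1 CPM (median 69.7) in females, whose lowest value was that of the library labelled noncystic female 5. Car2 ran from 299.0 to 424.2 CPM in males and from 439.5 to 550.1 CPM in females, the lowest again that library, without overlap, a change of -0.39 (SE 0.08, adjusted p = 0.00111). Aqp6 (-0.52), Rhcg (-0.45) and Rhbg (-0.44) were also lower in males, and all 11 transporters and factors had a negative change (median -0.39). Of the 5 intercalated isoforms of the pump, 3 were lower in males: Atp6v1g3 (-0.43, adjusted p = 0.00422), Atp6v1c2 (-0.38, adjusted p = 0.0251) and Atp6v0d2 (-0.33, adjusted p = 0.0202). Without the library labelled noncystic female 5, the lowest females were at 64.4 CPM of Foxi1 and 440.4 CPM of Car2, the changes were -0.66 (adjusted p = 0.00128) and -0.40 (adjusted p = 0.00178), and all 10 calls were kept among 12 members called.

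Of the 16 widely expressed subunits 2 were called higher in males and none lower, below the background in each direction, with a median of 0.11 against -0.01 over all genes. Atp6v1b2 was higher by 0.26 (adjusted p = 0.00774) and Atp6v0a2 by 0.23 (adjusted p = 0.0293). Of the 15 fits that left out 1 mouse, the call of Rhbg was lost in 8 (males 1, 2, 4, 5 or 8, or females 3, 4 or 6), that of Atp6v0a2 in 6 (males 4, 6 or 7, or females 1, 4 or 6) and that of Atp6v1c2 in 2 (females 1 or 4). Without noncystic female 4, 7 members were called. Of other collecting duct genes, 8 of 14 other intercalated genes and 6 of 9 principal cell genes were lower in males and none higher. The counts of the sexes were deposited in separate tables, and the processing described for both is the same.

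**Figure D5:**
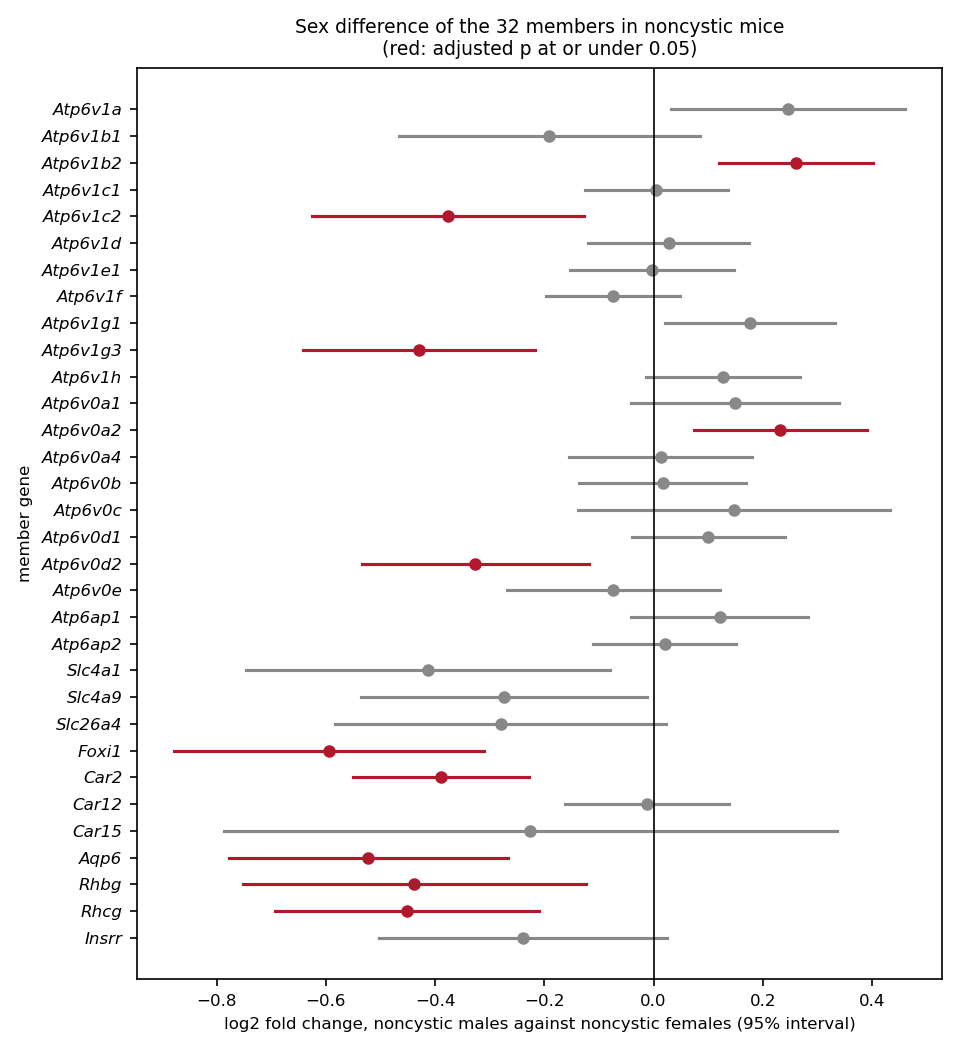
Log2 fold change of noncystic males against noncystic females for each of the 32 genes, with its 95% interval, in red at an adjusted p at or under 0.05. Foxi1 at -0.59 and Aqp6 at -0.52 lie farthest to the left, Atp6v1b2 at 0.26 farthest to the right among the genes called.

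The genotype changes themselves were compared between the sexes with an interaction term. No member was called for Pkd1KO against noncystic (background 0.0126%), for Pkd1KO against Pkd1KO+ciliaKO (background 0.221%) or for Pkd1KO+ciliaKO against noncystic (background 0.0316%), with 0, 2 and 2 members at an unadjusted p under 0.05 in edgeR, and none was called with other factors or filters. For Atp6v0c the male minus female differences were -0.11, 0.09 and -0.19, each with a 95% interval that spanned 0 and reached at most -0.54 and 0.44. The smallest adjusted p was that of Car2, at -0.41 (adjusted p = 0.176) for Pkd1KO against Pkd1KO+ciliaKO mice. A difference between the sexes in the calls above is therefore not shown for any member.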

How the data were processed

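TRAP RNASeq counts of 45 mouse kidneys were used, grouped by the labels' genotype and sex, with each mouse as 1 replicate. The authors deposited raw fragment counts per gene (fastp 0.20.0, STAR 2.7.9, featureCounts 2.0.0, GRCm38.p6), and, for each sex, TPM of protein-coding genes that reached 6 counts in 20% or more of its mice. Strand and multimapping options are not given in the sources used here. No column was left unused. From the deposited counts, scaled CPM were computed with TMM factors over those genes, and pairs of groups were fitted with the quasi-likelihood test of edgeR 4.0.16 (R 4.3.3) with Benjamini-Hochberg adjustment, a threshold of 0.05 and 95% intervals. The deposited TPM were used only for levels per length. The fit was tested on simulated counts. Alternatives were DESeq2 1.42.0, limma 3.58.1, other factors and filters, the replicate number as a block, and leaving out mice. At these depths counting error is small beside the spread between mice; reads carry no molecular identifiers.

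Copies of members were sought in the GRCm38 transcripts at 95% identity over at least 150 bases. Members, lists and named genes were chosen with earlier results of these data known: every member is accounted for, values by group are given for members called in any pairwise comparison (in the groups compared), for isoform pairs (as ratios) and for type A and B members, and other lists are given by counts and at most 2 genes with the smallest p. Replicate libraries were compared in 149 pairs within groups, and none agreed within sampling noise.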

Additional observations from a re-analysis of the deposited data

Results flagged for a closer look

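Within each group the highest and the lowest mouse were set against the rest (Dixon's criterion, 192 groups of values over the 32 members), and 16 values from 12 mice stood apart, in CPM. Chance alone would set apart about 1 in 20 groups.

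For Atp6v0c these were noncystic male 3 at 69.9 and Pkd1KO male 4 at 36.3, both among the 4 males treated as standing apart. The others were the libraries labelled noncystic female 5 at 46.9 and Pkd1KO+ciliaKO female 6 at 74.7, whose Kif3a also went against the label. Pkd1KO male 4 was also lowest for Atp6v0d1 at 110.1 and Atp6ap2 at 47.8. Atp6v1a was high in Pkd1KO+ciliaKO male 8 at 1422 (next 1132) and in Pkd1KO female 5 at 1129.85 (next 896.6).

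Among the acid-base genes, Slc4a9 was at 48.4 in noncystic male 6, Insrr at 41.8 in Pkd1KO male 2, Foxi1 at 151.1 in Pkd1KO+ciliaKO female 1, and Car15 at 0.765 in noncystic male 3. Car2 was at 409.1 in Pkd1KO male 3 and at 550.1 in noncystic female 1. Both ammonia transporters were high in Pkd1KO female 3, Rhbg at 19.3 and Rhcg at 191.7. No cause of these values was tested.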

How the results depend on the processing

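The lower Atp6v0c in comparisons with noncystic mice kept its direction under every alternative run, and its call in all but the sum with Atp6v0c-ps2 in Pkd1KO+ciliaKO mice and the fits without 1 mouse in Pkd1KO+ciliaKO females named above. Counts of members called moved more, and their cause was not tested. Pkd1KO against noncystic males (4 called) gave 10 by DESeq2, 7 with the 3 genotypes in 1 fit, 8 by limma, 2 without a filter on low counts and 1 without the 4 males that stood apart. Pkd1KO against Pkd1KO+ciliaKO males (2) gave 6 by DESeq2 and with the 3 genotypes in 1 fit, and 0 by limma, with the replicate block and without the 4 males. Pkd1KO+ciliaKO against noncystic males (3) gave 5 by limma. Pkd1KO against Pkd1KO+ciliaKO females (2) gave 7 by DESeq2, 6 by limma and 4 with the 3 genotypes in 1 fit, with DESeq2's size factors and with edgeR's filterByExpr. Pkd1KO+ciliaKO against noncystic females (1) gave 4 by DESeq2, 2 by limma and 2 without the 2 libraries. Pooled by allele, males (2) gave 4 without the 4 males, and females (1) gave 2 without the 2 libraries.

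Leaving out 1 mouse gave 1 to 9 members called in Pkd1KO against noncystic males (1 without noncystic male 1 and 9 without Pkd1KO male 2), 0 to 3 in Pkd1KO against Pkd1KO+ciliaKO males, 2 to 5 in Pkd1KO+ciliaKO against noncystic males, 2 to 3, 1 to 8 and 0 to 2 in the same female comparisons (8 without Pkd1KO female 3), 2 to 4 and 1 to 2 pooled by allele in males and females, and 7 to 12 between the sexes. The interaction terms stayed at 0 throughout.

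Reversals were of differences in Atp6v0c that were not called. Between Pkd1KO and Pkd1KO+ciliaKO males it was 0.000589 by DESeq2 and 0.000566 with its size factors, and ran from -0.0607 to 0.0550 without 1 mouse. Between the same females it was 0.0523 without the 2 libraries and 0.0398 with Atp6v0c-ps2 added, and ran from -0.155 to 0.0523 without 1 mouse. The sex differences of Atp6v0c became 0.00372, -0.0577 and 0.0614 without the 2 libraries, and ran without 1 mouse from -0.163 to 0.00372, from -0.0577 to 0.145 and from -0.249 to -0.0484.

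Replicate numbers did not pair the mice: same-numbered mice correlated at -0.36 to 0.47 in their deviations, and at most 2 mice of a comparison correlated best with their own number. With the replicate block, Pkd1KO against noncystic females gave 1 member called, Pkd1KO against Pkd1KO+ciliaKO mice 0 in each sex, and Pkd1KO against noncystic males 3. Car12 was no longer called in Pkd1KO+ciliaKO against noncystic males with the block (adjusted p = 0.0702).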
